A study of Mus musculus with 2 samples.

Results

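Peg3 and Mest are mouse genes read from the paternal copy only, and both had a higher signal in the EB sample than in the ES sample. All probes of the array whose target identifier carries the NCBI gene number of Peg3 (18616) or Mest (17294) were taken, which gave 2 probes of Peg3 and 1 of Mest, 3 of 46643 probes and 2 of 8106 named genes in all. The genes were chosen because earlier work on these arrays had shown the difference, so their values are a description and carry no test.

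The series holds total RNA of 2 samples, mouse ES cells labelled day 0 and mouse EB cells labelled day 4. Each was hybridised to 1 Illumina bead array. ES and EB usually stand for embryonic stem cells and for the embryoid bodies in which such cells differentiate, but the labels do not spell them out. Strain, cell line, culture medium and the presence of feeder cells are not given in the sources used here. Neither group was replicated, so no p-value is given. Culture, array and group cannot be told apart, and every error below covers only the spread between beads of a probe within an array. In bulk RNA, fewer cells of a type and less RNA per cell cannot be told apart either.

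Imprinted genes keep a mark from the egg or the sperm, mostly DNA methylation, that silences one parental copy in the embryo. The maternal copies of Peg3 and Mest are methylated around their promoters and silent. Peg3 encodes a large zinc finger protein with roles in growth, cell death and maternal behaviour. Mest, named for its expression in mesoderm, encodes a protein of the alpha/beta hydrolase fold, and an intron of the gene holds the microRNA miR-335. Both genes are also active in fibroblasts and in embryonic mesoderm. The arrays do not separate parental copies, so the signals are totals over both.

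The start regions of the members are shown because both genes moved the same way and carry their imprint there. Each run gives the 250 bases before a RefSeq start in build GRCm38.p6, 5′ to 3′ on the strand of the gene, with the CpG pairs that can be methylated in capitals. The window of Peg3 is chr7:6730420-6730669 on the minus strand, and that of Mest is chr6:30737800-30738049 on the plus strand.
Peg3: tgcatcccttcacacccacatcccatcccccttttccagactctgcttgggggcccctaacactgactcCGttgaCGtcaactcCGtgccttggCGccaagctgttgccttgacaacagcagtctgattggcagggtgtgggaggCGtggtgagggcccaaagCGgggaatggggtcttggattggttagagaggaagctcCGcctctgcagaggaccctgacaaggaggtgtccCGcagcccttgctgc
Mest: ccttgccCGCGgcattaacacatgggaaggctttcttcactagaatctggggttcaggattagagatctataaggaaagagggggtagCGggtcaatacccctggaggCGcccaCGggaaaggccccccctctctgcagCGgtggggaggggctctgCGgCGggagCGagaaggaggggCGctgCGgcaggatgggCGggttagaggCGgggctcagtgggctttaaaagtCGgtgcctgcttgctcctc

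The Peg3 window held 8 CpG pairs and the Mest window 14, against a median of 6 over 32851 windows of this length in the table. Of those windows 57.0% had fewer CpG pairs than Peg3 and 70.6% fewer than Mest. Usp29, which RefSeq places on the opposite strand, starts 164 bases from Peg3, so that the printed run covers the space between both starts. Mest has 3 listed starts. A second one lies 3 bases after the start used here, and the other lies 4544 bases before it, with 7 CpG pairs in its own window.

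Motifs were searched on both strands after the sequences had been read. The letters of the cyclic AMP response element, TGACGTCA, occurred in Peg3 178 bases before the start, and 1.55% of all windows hold them. Peg3 also held the CCAAT box, CCAAT, at 2 places (33.85% of windows), and neither place overlaps the TGACGTCA match. The Mest window held the GC box, GGGCGG, at 1 place (32.7% of windows) and TGCCGC, the motif of the imprint-keeping protein ZFP57, at 2 places (8.68% of windows). These Mest matches do not overlap. In neither window were the letters GCCATNTT of YY1 (3.91% of windows), TATAAA of the TATA box (12.4%) or CACGTG of the E-box (6.02%) found. A match of letters describes the window only and shows no binding.

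The brighter Peg3 probe, scl018616.1_273-S, had a deposited signal of 824.6 in ES over 46 beads and of 5578.9 in EB over 49 beads. After quantile normalization, which gives both arrays the same distribution of signals, the values were 832 and 5449. The bead-level standard error was 4.09% of the signal in ES and 2.90% in EB. The signal floor, the lowest normalized EB signal with a detection score above 0.99, was 230.0, and the ES signal lay 3.62 times above it. Both Peg3 signals were thus measured and not bounded by the floor. The ratio was 6.55, with a bead-level 95% interval of 5.935 to 7.22, and the log2 difference, EB minus ES, was 2.71 with a standard error of 0.07.

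The dimmer Peg3 probe, scl0018616.2_167-S, had deposited signals of 322.8 in ES over 55 beads and 1532.5 in EB over 37 beads, or 315 and 1510 after normalization. Its ES signal lay only 1.37 times above the floor. The ratio was 4.80 (bead-level 95% interval 4.30 to 5.36) and the log2 difference 2.26 with a standard error of 0.08. Both probes of Peg3 were therefore higher in EB by more than 4-fold, and the dimmer one gave the smaller difference.

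The gap between the log2 differences of the 2 Peg3 probes was 0.45, with a bead-level standard error of 0.11. Such gaps were common on these arrays: over 394 genes with exactly 2 probes that passed the floor on either array, their standard deviation was 0.40, and in 81 of them (20.6%) the gap was at least as large. The order of the 2 probes was the other way round in one set of values. In the authors' series value table the dimmer probe measured 132 in ES against 1328 in EB and the brighter probe 650 and 5265. From these the log2 difference was 3.33 for the dimmer and 3.02 for the brighter probe, so that the gap turned to -0.31. With normexp background the brighter probe kept the larger difference (2.80 against 2.52). The table lies below the sample files by a median of 177 signal units in ES and 188 in EB for signals between 500 and 2000, and an amount of that size is the larger part of the dimmer probe's ES signal. Over both probes and the scalings and backgrounds tried, the log2 difference of Peg3 ranged from 2.25 to 3.33, always higher in EB.

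Mest was measured by 1 probe, scl0017294.1_5-S. Its deposited signal was 2003 in ES over 36 beads and 11672.2 in EB over 32 beads, or 2027 and 11427 after normalization. The ES signal lay 8.81 times above the floor and was thus measured in the ES sample too. The ratio was 5.64 (bead-level 95% interval 5.05 to 6.30) and the log2 difference 2.50 with a standard error of 0.08. The value moved little with the background, with 2.61 in the series value table.

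**Figure D1:**
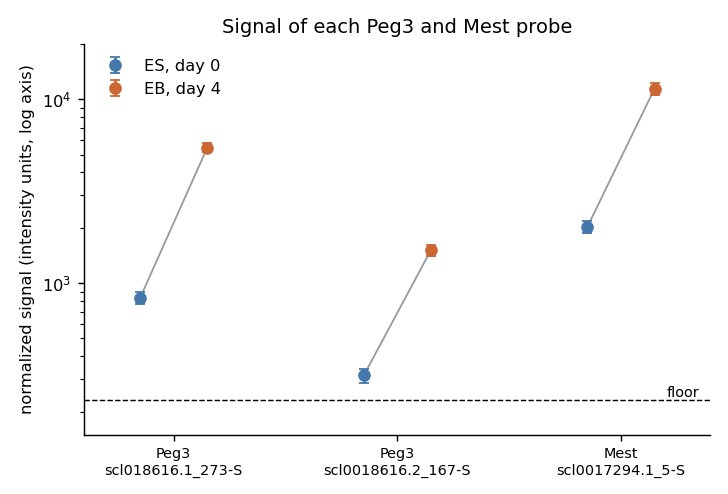
Normalized signal (intensity units, log axis) of each Peg3 and Mest probe in the ES array (day 0) and the EB array (day 4). Points are means over the beads of 1 array, bars are bead-level 95% intervals, lines join the same probe, and the dashed line is the signal floor of 230.0. In each of the 3 probes the EB point lies above the ES point by more than the bars.

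**Figure D2:**
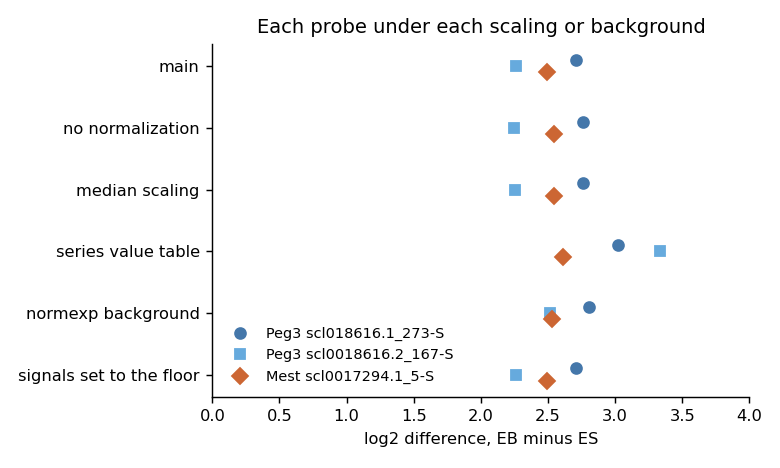
Log2 difference, EB minus ES, of the 3 probes under the main values and 5 other scalings or backgrounds, 1 marker per probe. The dimmer Peg3 probe moves from 2.26 to 3.33 with the series value table, while Mest stays between 2.50 and 2.61.

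The differences of the 2 genes were of similar size. That of the brighter Peg3 probe exceeded that of Mest by 0.22 with a bead-level standard error of 0.11, less than the standard deviation of 0.40 between probes of the same gene. Genes were compared by the probe with the highest mean log2 signal and counted as higher or lower at 2-fold, if above the floor in at least 1 array. Of 3871 such genes 351 (9.07%) passed the limit, 144 (3.72%) on the higher and 207 (5.35%) on the lower side, and 23 (0.594%) were higher by 4-fold. Peg3 ranked 11 and Mest 16 among the 3871 by signed difference, which is the property they were chosen for.

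**Figure D3:**
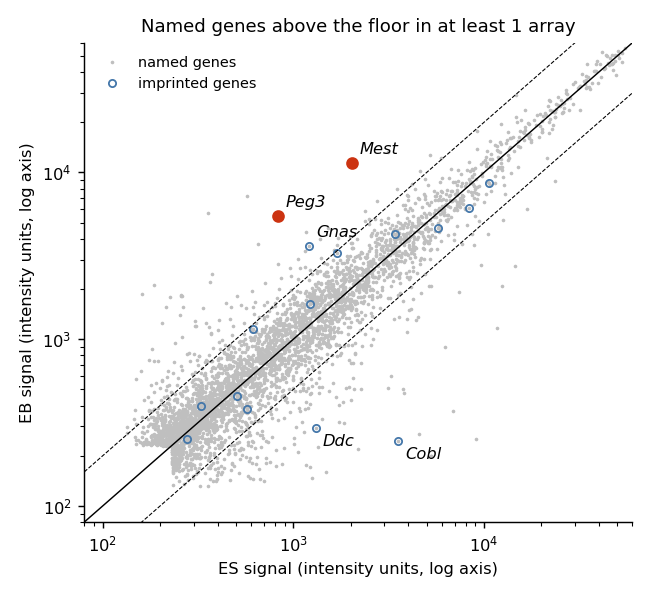
EB signal against ES signal (intensity units, log axes) for the 3871 named genes above the floor in at least 1 array, 1 point per gene. Open circles are imprinted genes, filled circles Peg3 and Mest, the solid line marks equal signals and the dashed lines 2-fold. Peg3 and Mest lie above the upper dashed line with Gnas, and Ddc and Cobl lie below the lower one.

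Other imprinted genes differed less or in the other direction. Of 76 imprinted genes listed, 27 had a named probe and 16 were above the floor, Peg3 and Mest among them. Of these 16, 3 were higher, 2 lower and 11 under the limit. Peg3 and Mest, chosen for it, were 2 of the 3 higher genes. Without them 1 of 14 was higher and 2 were lower, against 3.72% higher and 5.35% lower of all 3871. Counts this small cannot be set apart from those shares. The median log2 difference of the 16 was 0.07 against 0.06 over all 3871 genes. At 1.5-fold 5 of the 16 were higher and 3 lower, against 12.4% and 12.0% of all 3871. With the values of the series table, 2-fold was passed by 5 higher and 2 lower genes, against 13.6% and 12.1% of all. Both counts of 5 include Peg3 and Mest. Among the 14 others the median was -0.15. Several entries are imprinted only in some tissues or transcripts, and none of the listed genes was tested for its imprint here.

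Among the paternally expressed genes, 7 besides Peg3 and Mest were above the floor. Of these 0 were higher by 2-fold, 1 was lower and 6 were under the limit, and their median was -0.15. Over all 3871 genes 3.72% were higher and 5.35% lower, and counts this small cannot be set apart from those shares. Nearest under the limit were Slc38a4, an amino acid transporter, and Dlk1, a membrane protein related to Notch ligands. The signal of Slc38a4 was 1698 in ES against 3272 in EB (log2 difference 0.95, standard error 0.09), and its dimmer probe gave 0.87. Dlk1 had signals of 616 and 1148, a difference of 0.90. In the series value table both passed 2-fold, Slc38a4 with 1.03 and Dlk1 with 1.16, while with normexp background both gave 0.97. The dimmer Slc38a4 probe, whose ES signal of 233 lay close to the floor, gave 2.22 in the series value table.

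The remaining paternally expressed genes lay between -0.31 and 0.32 by their brightest probe, apart from Ddc. Impact, an inhibitor of the stress kinase Gcn2, had signals of 3411 and 4247 (log2 difference 0.32). Snrpn, a splicing protein gene of the Prader-Willi region, had 5746 and 4625, a difference of -0.31 with a standard error of 0.06, and its second probe gave -0.07. Peg10, which derives from a retrotransposon, gave -0.16, and Nnat, a small membrane protein of the endoplasmic reticulum, gave -0.15 close to the floor. Ddc, the decarboxylase that makes dopamine and serotonin, is paternally expressed from a transcript of the embryonic heart; its signal was 1310 in ES against 293 in EB, a 4.47-fold lower value (log2 difference -2.16).

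Of the 6 maternally expressed genes above the floor, 0 were higher and 1 was lower by 2-fold, with a median of -0.37. Counts this small cannot be set apart from the 3.72% higher and 5.35% lower of all 3871 genes. The lower gene was Cobl, an actin nucleator imprinted in the yolk sac, at 3557 in ES against 247 in EB. Rian, a noncoding RNA of the Dlk1 domain, had 571 and 381 (log2 difference -0.59). Commd1, a regulator of copper transport, gave -0.44 and the tetraspanin gene Cd81 -0.31, while Pon2, a paraoxonase, gave 0.41 and Tssc4 0.29. Gnas, which encodes the stimulatory G protein subunit and has transcripts from either parental copy, was the other higher gene. Its signals were 1208 and 3599, 2.98-fold higher, with a log2 difference of 1.57 and a standard error of 0.07.

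**Figure D4:**
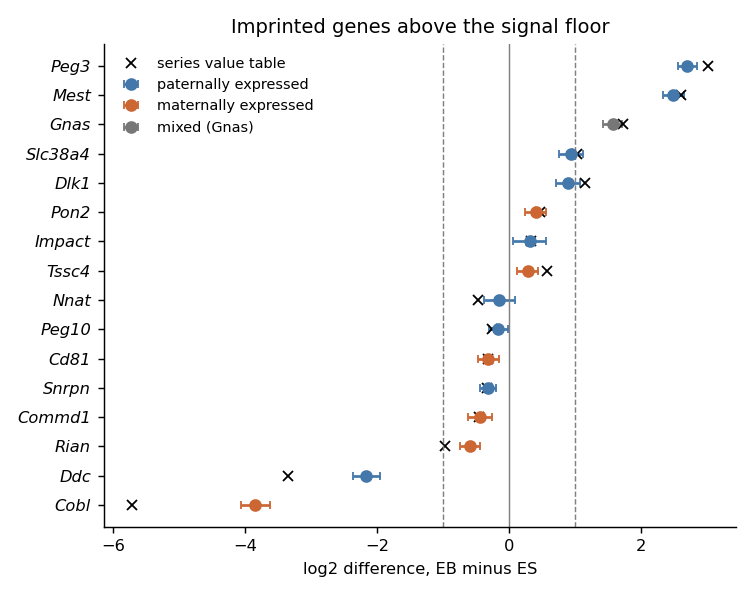
Log2 difference, EB minus ES, of the 16 imprinted genes above the signal floor, by the brightest probe of each, with bead-level 95% intervals and colour for the parental copy in use. Crosses give the same probe in the series value table and dashed lines mark 2-fold. Peg3, Mest and Gnas lie above 1 in both sets of values, Slc38a4 and Dlk1 cross it in the table alone, and Ddc and Cobl lie below -1 in both.

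Peg3 and Mest belong to a set of imprinted genes often described as a network of embryonic growth control. Of its 17 listed genes 9 had a named probe and 5 were above the floor. Of these Peg3 and Mest, chosen for it, and Gnas were higher, against 3.72% of all 3871 genes. Dlk1 and Slc38a4 were under the limit. Over Gnas, Slc38a4 and Dlk1 the median was 0.95, against 0.06 over all 3871 genes. A median of 3 genes, from a list chosen with earlier results known, says nothing particular of the list. Plagl1, a zinc finger regulator of the set, measured 183 in ES against 191 in EB, under the floor in both arrays, as were Grb10, Meg3 and Dcn. Igf2, H19, Igf2r and Cdkn1c had no named probe and are not analysed here.

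The neighbours of each gene in the genome were examined for a shared difference. Of the 40 protein-coding genes nearest to Peg3 in RefSeq order, 20 on each side, 15 had a named probe and 6 were above the floor, with a median of 0.04. Of these 6, 1 passed 2-fold, against 9.07% of all genes, and counts this small cannot be set apart from that share. It was Aurkc, a meiotic aurora kinase and the second coding gene beyond Peg3 on the side of Usp29. Its signal was 1219 in ES against 171 in EB, at least 5.30-fold lower against the floor, opposite to Peg3. The other 5 were zinc finger genes. Zscan5b measured 297 in ES and 151 in EB, the latter under the floor, a log2 difference of -0.97 just inside the limit. Zfp28 gave 0.40, Zfp444 0.32, Zfp787 0.25 and Zfp773 -0.17. Zfp444 was under the floor in ES and Zfp773 in EB, so these differences were not measured above the floor in both arrays. Usp29 and Zim1, next to Peg3, had no named probe and are not analysed here.

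Around Mest, 13 of 40 such genes had a named probe and 7 were above the floor, with a median of 0.26. Of these 7, 1 passed 2-fold, against 9.07% of all genes, and counts this small cannot be set apart from that share. The gene was Smo, the Hedgehog signal transducer, 14 coding genes away, with signals of 407 and 1304, 3.20-fold higher. Ube2h, a ubiquitin-conjugating enzyme gene 10 coding genes away, gave 0.45, and Akr1b3, an aldo-keto reductase gene, -0.60 with signals of 5176 and 3414. The other 4 lay between 0.10 and 0.34. Copg2, whose end overlaps that of Mest, and Cep41 had no named probe and are not analysed here. Peg3os, an antisense RNA, overlaps Peg3 as well. The strand and position of the probes are not known here, so signal from these overlapping transcripts cannot be told apart from that of the members.

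Factors that keep imprints in the early embryo formed a further list. Of 22 listed genes 9 had a named probe and 5 were above the floor, of which 0 were higher and 1 was lower, with a median of 0.10. That is 1 of 5 past the limit, against 9.07% of all genes, and says nothing particular of the list. The lower one was Dppa3, which protects methylation in the early embryo and also marks pluripotent cells, at 1476 in ES against 159 in EB, at least 6.42-fold lower. Uhrf1, which brings the maintenance methyltransferase to DNA, gave 0.29, Smchd1, a chromatin protein of imprinted clusters and the inactive X, 0.52 and the zinc finger gene Zfp445 0.10. Tet2, a methylcytosine oxidase, had 324 in ES and an EB signal under the floor. Yy1 was under the floor in both arrays.

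Few of the genes linked to the known actions of the 2 proteins had a named probe. Of 12 listed partners and pathway genes of Peg3 3 had a named probe, all above the floor, with a median of 0.19. Tnfrsf1a, the receptor of tumour necrosis factor in whose signalling Peg3 takes part, had signals of 442 and 1643, 3.71-fold higher (log2 difference 1.89, standard error 0.09). Siah1b, a ubiquitin ligase gene of the Siah family, gave 0.19 and Becn1, an autophagy gene, 0.03. That is 1 of 3 past 2-fold, against 9.07% of all genes, and says nothing particular of the list. Of 19 relatives of Mest in the hydrolase fold 3 had a named probe and Serhl alone was above the floor (0.08). Of 10 genes of Lrp6 signalling and fat cells, where Mest has been studied, 5 had a named probe and 3 were above the floor. Of these 0 passed 2-fold, against 9.07% of all genes: Lrp5 (0.24), Lrp6 (0.09) and Cebpb (-0.29), with a median of 0.09.

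For each member the 5 genes with the nearest pair of signals were found by the distance between log2 signals over the 2 arrays, a rule under which brightness between probes counts as well as the difference. Nearest to Peg3 were Spata13 (distance 0.58), Greb1 (0.65), Nrp1 (0.67), Gnas (0.80) and Gpc1 (0.83). Spata13 encodes an exchange factor for small GTPases and gave a log2 difference of 1.90, while Greb1, a hormone-responsive gene, gave 2.51. Nrp1, a semaphorin co-receptor, gave 3.66 and Gpc1, a cell surface proteoglycan, 1.56. Nearest to Mest were Emb, a cell adhesion molecule (distance 0.67, log2 difference 2.09), and Nsdhl of sterol synthesis (0.88 and 1.29). Dlg5, a polarity scaffold (0.96 and 1.17), Acat2, a thiolase (0.98 and 1.32), and Dpysl2 of axon growth (1.12 and 1.04) followed. With 2 arrays no correlation could be computed.

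Markers of cell types differed between the arrays in both directions, and their part in the Peg3 and Mest differences was not tested. Over all 3871 genes 3.72% were higher and 5.35% lower by 2-fold, and 1723 had a negative difference. These shares belong beside every marker count here and below. Of 18 pluripotency markers 12 had a named probe. All 12 had a negative difference, 10 of them past 2-fold, led by Klf2, Zfp42, Spp1 and Dppa4. Their summed signal was 49325 in ES and 5398 in EB, background included. Summed signals here and below cover every marker with a named probe, also those under the floor. Of 16 streak and mesoderm markers 3 had a named probe (Lhx1, Eomes and Fst), all higher, with a summed signal of 703 in ES and 4959 in EB. Of 14 blood and endothelial markers 8 had a named probe and 6 were above the floor, with Lmo2, Hba-x, Hba-a1 and Nfe2 higher and Pecam1 lower. The summed signal of the 8 was 2139 in ES and 4252 in EB, and in ES only Pecam1 was above the floor.

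Fibroblasts, in which both genes are active, were examined by 18 markers, of which 10 had a named probe and 4 were above the floor. The collagen genes Col1a1 and Col5a1 were well above the floor in both arrays, at 2602 and 1969 in ES and at 1007 and 1335 in EB, so Col1a1 was lower in EB (log2 difference -1.37) and Col5a1 under the limit (-0.56). Fbln2, a matrix protein, went the other way, from 365 to 2205 (2.59), and Col6a1 gave 0.07. The other 6 with a named probe (Col1a2, Col3a1, Col5a2, Dcn, Postn and S100a4) were under the floor in both arrays. The markers thus differed among themselves, and the part of fibroblasts in the member signals was not tested. The summed signal was 6207 in ES and 5771 in EB. Of 16 endoderm markers 5 were above the floor, with Gata4 higher and Trf lower (summed signal 1716 and 2075). Of 11 trophoblast markers 6 had a named probe and 4 were above the floor, with Plac1 and Gata3 higher and Tfap2c and Krt19 lower. The summed signal of the 6 was 5165 in ES and 2521 in EB. Of 11 neural markers 5 had a named probe and 3 were above the floor, with 0 past 2-fold. The summed signal of the 5 was 2587 in ES and 3943 in EB, of which Sox11 alone made up 1605 and 2988 (log2 difference 0.90). Of the others, Nes gave 0.00 and Tubb3 -0.21, and Pax6 and Map2 were under the floor in both arrays.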

How the data were processed

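Expression was measured on Illumina mouse bead arrays, 1 for ES (day 0) and 1 for EB (day 4). Per the file headers the authors read the intensity of each probe, the mean over its beads, with BeadStudio 2.3.41 and no normalization. The sample titles, however, call the data normalised. BeadStudio 2, RMA and limma are further tools in the submitters' processing notes. The deposited bead counts (median 38 in ES and 37 in EB) and the deposited detection score, a fraction from 0 to 1 held for EB only, come from the same files. The deposited spread between beads is labelled BEAD_STDEV, by name a standard deviation. It fell with bead number, with log slopes of -0.44 and -0.47 at signals of at least 1000. A standard error gives -0.5 and a standard deviation 0, so the spread was used as a standard error. How the authors made the series value table is not stated; it rose with the sample signals (Spearman correlation 1).

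Signals were quantile normalized without background subtraction and put on the log2 scale (Python 3.11.15, numpy 2.4.6; checked against limma 3.58.1 in R 4.3.3); unsubtracted background shrinks differences of dim probes. Numbers of at least 10000 in zero-padded target names were taken for NCBI gene numbers and 9 accessions were matched, through RefSeq names of GRCm38.p6, so that 9805 probes (21.0%) of 8106 genes were named. The size rule was tested on simulated data, with changes put only into probes with an ES signal above 1000. Both Peg3 probes were dimmer than this in ES, so the simulation does not cover them. The 2 members and 17 gene lists were chosen with earlier results of these data known, and Ddc was moved from the maternal to the paternal list after its value was seen. Named are all listed imprinted genes and list neighbours above the floor, up to 4 members past 2-fold of each other list, and the 5 genes nearest to each member; further genes were named after their values were seen. Alternatives were other scalings, backgrounds, floors, detection rules, size limits and the mean over probes. The number of arrays limits the precision.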

Additional observations from a re-analysis of the deposited data

How the results depend on the processing

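No paired analysis was possible because there is a single array for ES and for EB, and none could be left out. All 3 probes were higher in EB under each of 5 other scalings or backgrounds. The bead-level 95% error was exceeded by the brighter Peg3 probe with the series value table (3.02) and with the mean over both probes (2.49), and by the dimmer Peg3 probe with the table (3.33) and with normexp background (2.52). Mest stayed within it (2.50 to 2.61). Imprinted genes higher in EB, with Peg3 and Mest always among them, numbered 5 with the table and 5 at 1.5-fold, in place of 3. The median of the listed imprinted genes was -0.065 with a looser detection in ES (signal above the array median, chosen after the data were seen), in place of 0.07. All named genes past 2-fold numbered 528 higher and 468 lower with the table, 479 and 463 at 1.5-fold and 23 and 40 at 4-fold; detection in both arrays gave 134 lower. The cause of the table's larger counts was not tested. The ES signal of the dimmer Peg3 probe lay only 1.37 times above the floor, and the cause of its move between settings was not tested.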
